A study of Mus musculus with 4 samples.

Results

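Classical monocytes are the inflammatory monocytes that leave the blood and enter injured tissue. In this series a set of them was chosen by the UMI counts of 17 genes, from single-cell RNA libraries of CD45+ cells (leukocytes) of the mouse esophagus. A UMI is a tag that marks 1 captured RNA molecule. A cell entered the monocyte gate with 3 or more summed UMIs of Ly6c2, Vcan, Chil3 and F13a1, 1 or more of Csf1r and 5 or more of Lyz2, while C1qa, C1qb and C1qc had to stay under 10 in sum and Cd209a under 2. Of the 1039 gated monocytes, 290 passed the further limits on 3 activation programs and are called classical monocytes here, out of 6054 cells in all. These limits were under 5 summed UMIs of Cxcl10, Ifit2 and Rsad2, under 5 of Arg1 and Ccl24, and under 2 of Cxcl1 and Mmp19. The other 749 gated cells are called activated monocytes: 444 passed the limit of the interferon genes, 255 that of Arg1 and Ccl24 and 478 that of Cxcl1 and Mmp19, and 82 passed all 3.

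The animals were 5 wild-type and 5 IL20RB knock-out mice, kept free of specified pathogens. IL20RB is a receptor chain shared by the receptors of the cytokines IL-19, IL-20 and IL-24. All 10 animals went through a model of eosinophilic esophagitis (EoE), an allergic inflammation of the esophagus. Their ears were treated every day for 14 days with 1 nmol of the vitamin D analog calcipotriol (MC903) and with ovalbumin (OVA) at 5 mg/mL. They then drank water with OVA at 1.5 g/L for 4 days, received 50 mg of OVA by gavage on days 15 and 17, and were killed on day 18. All animals had the allergen, so every comparison lies within the model. The sources used here do not give strain, sex, age or the kind of knock-out allele. Each animal carried its own hashtag antibody, all cells were pooled and sorted as live CD45+ cells, and 2 wells of a droplet instrument were loaded. The animal is the replicate, and animals are numbered within each genotype in the order of their hashtags, so equal numbers do not pair a wild-type with a knock-out animal. The barcodes of 0 classical monocytes occurred in both wells.

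Classical monocytes are made in the bone marrow, carry Ly6C on their surface and follow the chemokine CCL2 through its receptor CCR2. In tissue they can become macrophages or antigen-presenting cells, and on the way some switch on MHC class II, the molecules that show peptides to helper T cells. Interferons raise the antiviral genes and the MHC class I pathway in them, while IL-4 and IL-13, the cytokines of allergic inflammation, favour genes such as Arg1 and Ccl24 in macrophages.

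The cells carried the genes of classical monocytes. Of the 5 genes given to mark them, the chemokine receptor Ccr2 had a UMI in 95.5% of classical monocytes, Plac8 in 86.9%, the lectin Chil3 in 70.3%, the surface protein Ly6c2 in 66.6% and the matrix proteoglycan Vcan in 60.3%. In 362 lymphocytes, which should lack most of these genes, the same shares were 34.8%, 28.5%, 1.93%, 16% and 1.10%. The median cell held 5550 UMIs among classical monocytes and 3136 among lymphocytes. The genes of a classical monocyte list each had a UMI in at least 25% of the cells, up to Lyz2 and Csf1r (100%, both set by the rule). Since Ly6c2, Vcan and Chil3 are in the rule, only Ccr2 and Plac8 were free to differ, and both are a description of cells chosen by related genes.

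**Figure D1:**
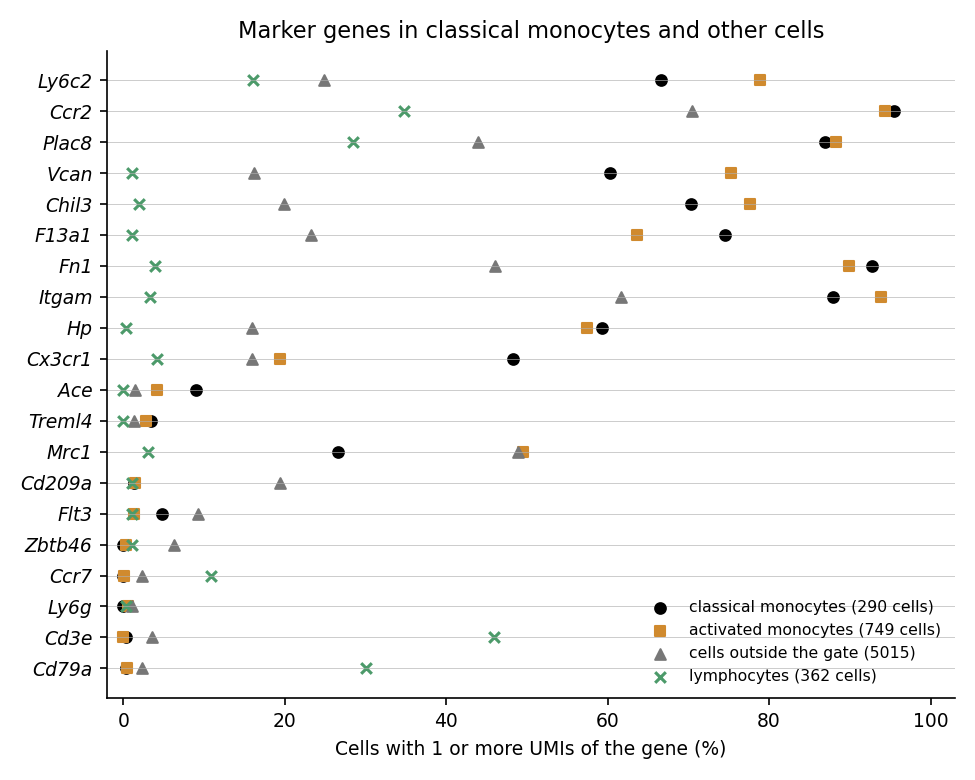
Share of cells with 1 or more UMIs (x axis, percent) for 20 marker genes (y axis) in classical monocytes, activated monocytes, cells outside the gate and lymphocytes. Monocyte genes such as Ccr2 (95.5%) and Fn1 (92.8%) lie far to the right for classical monocytes, while Zbtb46, Ccr7 and Ly6g lie at 0.

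Many defining markers of other cells were at 0, and some genes of neutrophils, B cells, macrophages and dendritic cells were present. All 9 genes of mast cells and basophils and all 5 erythroid genes gave 0 UMIs, as did Zbtb46 and Cd7 of dendritic cells, Ccr7, Fscn1 and Ccl22 of migratory dendritic cells, Ly6g, Camp and Ltf of neutrophils, and Epx, Siglecf, Il5ra and Ccr3 of eosinophils. A count of 0 in 290 cells allows up to 1.03% of cells with a UMI. Neutrophil genes summed to 393 CPM (a gene's UMIs scaled to a common total per animal, mean of 8 animals) and ranged from 54.1 to 1307 between animals, against 3662 in the cells outside the gate. The 11 T cell genes summed to 28.4 CPM and the 8 B cell genes to 131 CPM, with highest values of 216 and 462, each in a knock-out animal. Of these genes, Trbc2 (7 UMIs) and Cd79a (6 UMIs) each had a UMI in 0.345% of classical monocytes. Of 20 macrophage genes 18 had a UMI, 5 of them in 25% or more of the cells, with Apoe in 65.5% and Mrc1 in 26.6%. They summed to 2795 CPM, against 5536 in the cells outside the gate. Of 13 genes of cDC2, a kind of dendritic cell, 11 had a UMI (179.9 against 1357 CPM). Of 8 genes of cDC1, another kind, 7 had one (45.1 against 145 CPM). S100a8, a neutrophil gene that monocytes also express, had a UMI in 11% of classical monocytes and S100a9 in 3.45%. Of 10 further lineage genes (Cd3e, Cd3d, Trac, Ncr1, Gata3, Cd79a, Ms4a1, Cpa3, Retnlg and Cxcr2), 3 cells held 2 or more summed UMIs. Knock-out animal 4 gave 2 of these cells and wild-type animal 1 gave 1.

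Genes of nonclassical monocytes, the patrolling cells of the vessel wall, were present, some of them in many cells. The 14 listed genes summed to 936 CPM, against 663 in activated monocytes and 722 in the cells outside the gate. Of these, 4 had a UMI in 25% or more of classical monocytes and 4 in under 5%. Itgal had one in 51.0% (42.8% of lymphocytes) and Pou2f2 in 34.5% (26.5% of lymphocytes). Cx3cr1, the fractalkine receptor that rises as classical monocytes mature, had a UMI in 48.3% of classical monocytes, in 19.4% of activated monocytes and in 4.14% of lymphocytes. Ace, which marks nonclassical monocytes, had one in 8.97% and Treml4 in 3.45%, while both gave 0 UMIs in lymphocytes, and Cd300e gave 0 UMIs in classical monocytes. Spn had one in 14.8%, below its share of 35.1% in lymphocytes. The classical markers were thus present, in part because the rule requires them. Plac8, which is not in the rule, had a UMI in 86.9% of classical and 88.3% of activated monocytes. Genes of nonclassical monocytes and macrophages were also present in classical monocytes.

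None of the genes of the deleted receptor was seen in these cells. Il20rb, its partner chains Il20ra and Il22ra1, and the ligands Il19, Il20 and Il24 gave 0 UMIs in the 290 cells, as did Il22 and Il22ra2. Il20rb had a UMI in 0.134% of activated monocytes and in 0.299% of the cells outside the gate, so its level could not check the genotypes here. Chains of related receptors were measured: Il10ra, the IL-10 receptor, had a UMI in 43.4% of classical monocytes (13.5% of lymphocytes), and Il10rb, a chain of the IL-10 and IL-22 receptors, in 38.6% (19.3%).

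The number of classical monocytes per animal ran from 5 to 53. Wild-type animals 1 to 5 held 45, 5, 32, 26 and 43, and knock-out animals 1 to 5 held 53, 28, 6, 19 and 33. As a share of each animal's cells these were 5.02%, 0.785%, 3.96%, 5.2% and 7.44% in wild-type animals, against 6.04%, 7.18%, 2.21%, 4.57% and 4.86% in knock-outs. The groups overlapped fully (4.48 ± 2.42% against 4.97 ± 1.86%, mean ± SD, n = 5 each, two-sided exact permutation p = 0.706, adjusted p = 0.857 over 4 comparisons of shares and depth).

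Most gated monocytes of most animals carried an activation program. Classical monocytes made up 27.1%, 10.9%, 45.1%, 34.7% and 36.8% of gated monocytes in wild-type animals and 20.1%, 70.0%, 30.0%, 26.4% and 19.6% in knock-out animals. Knock-out animal 2 stood apart: 28 of its 40 gated monocytes carried no program and 2 carried the interferon program. The means were 30.9 ± 12.9% and 33.2 ± 21% (n = 5 each, exact permutation p = 0.849, adjusted p = 0.857). Without knock-out animal 2, the knock-out mean was 24 ± 5.04% and the difference turned to -6.87 percentage points (exact permutation p = 0.389). Depth overlapped between the genotypes: in the 4 animals per genotype with 10 or more classical monocytes, the median cell held 5663 ± 675 UMIs in wild-type animals, against 5559 ± 199.6 UMIs in knock-outs (exact permutation p = 0.857, adjusted p = 0.857; the smallest p this size allows is 0.0286).

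**Figure D2:**
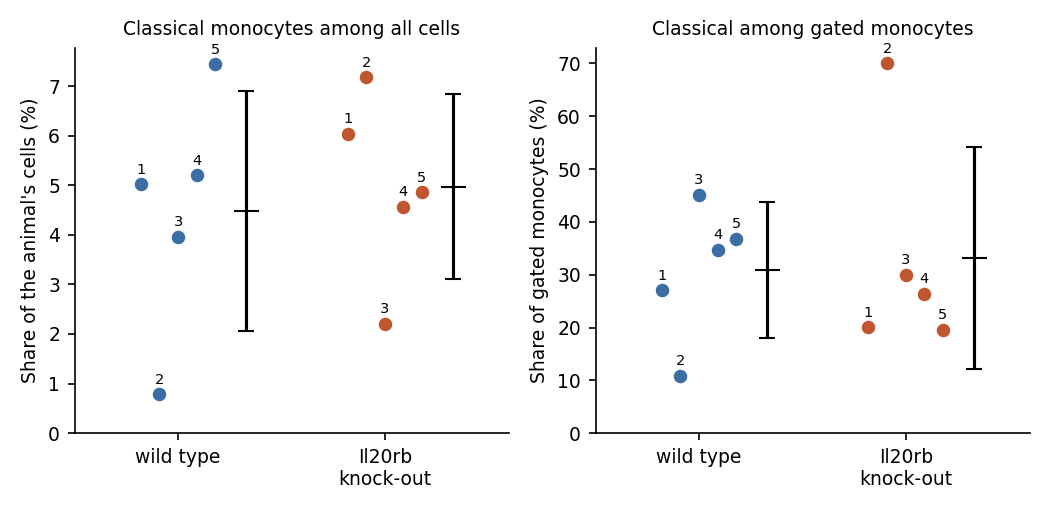
Classical monocytes as a share of all cells of an animal (left, percent) and of its gated monocytes (right, percent), 1 point per animal with its number, and mean ± SD beside the points. The genotypes overlap in both panels, and knock-out animal 2 stands alone at 70.0% on the right.

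The limits of the rule lie inside continuous distributions. At the monocyte gene limit, 27 classical monocytes held exactly 3 summed UMIs and 32 cells failed with 2. At the limit of Cxcl1 and Mmp19, 91 classical monocytes held 1 UMI and 58 cells were left out with 2. At the interferon limit the counts were 8 with 4 UMIs and 11 with 5, and at that of Arg1 and Ccl24 they were 3 and 7. The summed interferon genes were at 0 in 68.3% of classical monocytes, Arg1 and Ccl24 in 82.4% and Cxcl1 and Mmp19 in 68.6%.

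Set beside the activated monocytes of the same animals, classical monocytes held less of many chemokine and interferon genes that the rule does not name. The rule chose the cells by this contrast, so the values are a description with no test. Folds are log2 of CPM with 20 CPM added, averaged over 8 animals, and of 2812 genes 149 were higher and 165 lower in every animal. Ccl4 (381 against 1609 CPM, log2 fold -2.26) and Ccl7 (556 against 2457, -2.21), which attract monocytes and T cells, led the lower genes. Ccl2, the ligand of Ccr2, was still abundant in classical monocytes, at 1753 against 4754 CPM (-1.46). Among interferon-stimulated genes outside the rule, Isg15, a ubiquitin-like protein, stood at 424 against 1796 CPM (-1.94), and Oasl1 (-2.05), Ifit3 (-2.03), Ifit1 (-1.84) and Ifi205 (-1.80) followed. AA467197 (-2.10), Ly6a (-2.03) and the protease inhibitor Timp1 (-1.96) completed the first 10.

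The genes higher in classical than in activated monocytes had smaller folds. Ighm, the heavy chain of immunoglobulin M, led at 99.0 against 30.8 CPM (1.19, range 0.72 to 1.75). Its share of cells with a UMI was 31.4%, against 49.7% in lymphocytes and 15.5% in activated monocytes. Next came the lectin-like receptor Cd302 (1.06), Itgal, the alpha chain of the integrin LFA-1 (182 against 88.8 CPM, 1.04), and Cx3cr1 (213 against 105, 1.01). Mettl9 (0.91), Tmem176b (0.86), Cox7a2l (0.86), the endocytic receptor Sorl1 (0.83), the B cell and myeloid transcription factor Pou2f2 (0.83) and Igsf6 (0.82) completed the first 10. Itgal, Cx3cr1 and Pou2f2 belong to the list of nonclassical monocyte genes. Activated cells were deeper (median 6409 against 5550 UMIs), and the part of depth in these folds was not tested.

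Some monocyte genes had mean log2 folds of only -0.10 to 0.19 between classical and activated cells, while others differed more. Plac8 stood at 2483 against 3114 CPM (higher in 3 of 8 animals), Ccr2 at 1077 against 938 (higher in 7 of 8), the matrix protein Fn1 at 2018 against 2268 (3 of 8) and the cytokine Il1b at 889.5 against 996 CPM (5 of 8). Of those that differed more, the marker Ly6c2 was lower in classical monocytes (-0.51, higher in 2 of 8 animals). Ms4a4c (-0.83, higher in 1 of 8) and Thbs1 (-0.78, lower in every animal) were lower too. Other monocyte genes were higher in classical monocytes: Mgst1 (0.81) and Ifitm6 (0.46) in every animal, and Hp (0.56) in 7 of 8.

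The classical monocytes were far from uniform in MHC class II. UMIs of H2-Aa, H2-Ab1, H2-Eb1 and the invariant chain Cd74 were summed after each cell of 3000 or more UMIs was thinned to 3000, which left 268 of 290 cells. Of these, 68 held 0 such UMIs, 95 held 1 to 9, 28 held 10 to 19, 28 held 20 to 39 and 49 held 40 or more, up to 163. The histogram falls from its first bar into a long tail without a clear gap. Cells with 20 or more are called MHC class II-high here; they were 77 (28.7%), with a median of 53.0 UMIs against 1.00 in the other 191.

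**Figure D3:**
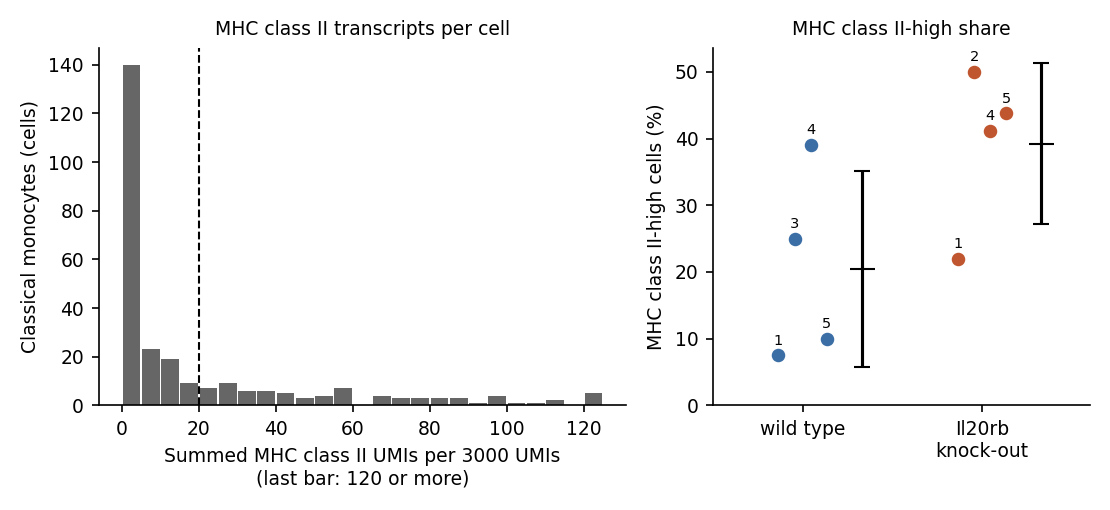
Left, classical monocytes (y axis, cells) by their summed MHC class II UMIs per 3000 UMIs (x axis, bars of 5 UMIs, the last one open), with the limit of 20 UMIs as a dashed line. Right, share of MHC class II-high cells (percent) in the 8 animals with 10 or more classical monocytes, with mean ± SD: 3 of 4 knock-out animals lie above every wild-type animal.

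The MHC class II-high share was 7.5%, 25%, 39.1% and 10.0% in wild-type animals 1, 3, 4 and 5 and 22%, 50.0%, 41.2% and 43.8% in knock-out animals 1, 2, 4 and 5. Knock-out animals 2, 4 and 5 lay above all wild-type animals, and knock-out animal 1 lay below wild-type animals 3 and 4. The means were 20.4 ± 14.7% and 39.2 ± 12.1%, and the difference of 18.8 percentage points did not pass (n = 4 each, exact permutation p = 0.114, adjusted p = 0.457). In well 1 alone the difference was 17.1 (exact permutation p = 0.229) and in well 2 alone 19.7 percentage points (exact permutation p = 0.257).

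MHC class II genes are switched on together by the coactivator CIITA, which binds no DNA itself but sits on factors bound to conserved boxes close to the gene start. One of these boxes, the Y box, is an inverted CCAAT motif. Promoter sequences of 4 of 7 MHC class II genes sought were in the RefSeq promoter table (GRCm38.p6). The motif ATTGG, searched on both strands in the 250 bases before the gene start, occurred in all 4 genes, but also in 33.8% of 32851 promoters. It is shown for the 3 genes in which it lay within the last 61 bases before the start, as the 120 bases up to the start, with the matches in capitals. H2-Aa lies at chr17:34287824-34287943 (minus strand) with the match from base 48 before the start, H2-Eb1 at chr17:34305747-34305866 (plus strand) with its first match from base 59, and H2-DMb1 at chr17:34153071-34153190 (plus strand) with the match from base 61.
H2-Aa: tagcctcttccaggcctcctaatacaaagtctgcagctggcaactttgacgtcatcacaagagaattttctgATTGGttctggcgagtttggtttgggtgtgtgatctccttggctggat
H2-Eb1: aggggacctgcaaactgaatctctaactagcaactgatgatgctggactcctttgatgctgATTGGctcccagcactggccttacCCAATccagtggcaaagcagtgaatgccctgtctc
H2-DMb1: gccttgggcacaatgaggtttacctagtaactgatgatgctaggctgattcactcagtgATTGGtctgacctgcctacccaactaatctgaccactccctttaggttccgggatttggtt

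These 3 genes were among those that set MHC class II-high cells apart. The split was made on H2-Aa, H2-Ab1, H2-Eb1 and Cd74, so their values describe the split: H2-Eb1 stood at 2380 against 30.7 CPM (log2 fold 5.72, mean of the 6 animals with 5 or more cells of both kinds), H2-Aa at 3403 against 112 (4.87), H2-Ab1 at 3091 against 106 (4.80) and Cd74 at 11763 against 966 (3.79). The genes below were not in the split, but they come from the same cells and are given with no test. Of 3089 genes, 40 were higher and 99 lower in MHC class II-high cells of all 6 animals. How many genes would move alike in 6 animals by chance was not tested, so these counts are only a description.

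The H2-DM genes and several lectins and surface receptors were higher in MHC class II-high cells too. H2-DMb1, a chain of the peptide exchange factor H2-DM, stood at 608 against 90.2 CPM (2.5, range 1.82 to 3.33), and its partner H2-DMa at 746 against 285 CPM (1.41). The C-type lectins Clec4b1 (147 against 20.5 CPM, 2.28), Mrc1, the mannose receptor (404 against 75.7, 2.09), and Clec10a (108 against 12.4, 1.67) were higher in every animal, with Slamf9 (1.93) and Tmem176b (356 against 94.2, 1.83). Ciita, the coactivator itself, had a UMI in 31.2% of MHC class II-high and 4.19% of MHC class II-low cells (9.12% of lymphocytes).

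Several classical monocyte genes were lower in MHC class II-high cells. Plac8 stood at 1758 CPM in MHC class II-high against 3557 in MHC class II-low cells (-1.65, range -4.76 to -0.35) and the matrix protein Thbs1 at 207 against 639 (-2.43). Ifitm6 stood at 166 against 445 (-1.55) and the methionine sulfoxide reductase Msrb1 at 310.4 against 843 CPM (-1.54). The receptor Cd300lf, which is not in the classical monocyte list, stood at 20.2 against 140.5 CPM (-2.41). Haptoglobin (Hp) had a UMI in 26% of MHC class II-high and 74.3% of MHC class II-low cells, and Vcan, a gene of the rule, in 33.8% and 72.3%. The others of the first 10 were Smox (-1.95), Napa (-1.89), Ube2w (-1.69), Daxx (-1.68), Ifi211 (-1.67), E230029C05Rik (-1.66) and Pik3r1 (-1.65). Several of them rested on few UMIs: Napa stood at 0 against 59.1 CPM, Ube2w at 5.05 against 61.2 and Smox at 17.0 against 112. Per animal, 7 to 14 MHC class II-high and 10 to 39 MHC class II-low cells were summed. The part of these cell numbers in the folds was not tested. Spi1, which encodes the myeloid master factor PU.1, stood at 274 against 446 CPM (-0.65). Other genes of the classical monocyte list did not follow this pattern. Ccr2 had a UMI in 100% of MHC class II-high and 94.8% of MHC class II-low cells. Fn1 stood at 2305 against 1825 CPM, Ccl9 at 841 against 550.2, S100a6 at 7822 against 7294 and S100a4 at 5035 against 5165. The rule genes F13a1 (384 against 379) and Csf1r (426 against 449) were close as well. Each of these CPM values went both ways across the 6 animals.

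Most listed genes of macrophages, and some of dendritic cells, had a UMI in a larger share of MHC class II-high cells. Of 20 macrophage markers, 14 had a UMI in a larger share of MHC class II-high than of MHC class II-low cells, 4 in a smaller share, and 2, Lyve1 and Timd4, were at 0 in both. Besides Mrc1, the largest gaps included the scavenger receptor gene Fcrls (26% against 0.524%), C1qb, a complement gene that the rule limits (33.8% against 8.90%), and the hemoglobin receptor Cd163 (10.4% against 0.524%). Among the 4 with a smaller share were Apoe (55.8% against 69.1%), Spp1 (11.7% against 19.9%) and Gpnmb (2.60% against 4.19%). The clearance receptor Axl, from another list, had 24.7% and 4.71%. Retnla, a gene of alternative activation, stood at 3960 against 33.3 CPM but was higher in 4 of 6 animals only. Of 13 dendritic cell (cDC2) markers 7 had a larger and 4 a smaller share in MHC class II-high cells: Mgl2, a lectin of dendritic cells and macrophages, 20.8% and 2.62%, the integrin Itgax 19.5% and 6.81%, Klrd1 7.79% and 1.05%, and Cd209a, which the rule limits, 2.60% and 1.05%. Irf4, a transcription factor of dendritic cells and macrophages, had 26% and 9.95%. Of 8 markers of cDC1, 3 had a larger and 4 a smaller share in MHC class II-high cells, and 1 was at 0 in both. Of 7 markers of migratory dendritic cells, 2 had a larger and 2 a smaller share, and 3 were at 0. Zbtb46 gave 0 UMIs in both kinds of cells, and Flt3 had one in 3.90% of MHC class II-high and 4.71% of MHC class II-low cells. These genes were chosen after their values were seen. MHC class II-high cells were somewhat deeper before thinning (median 6561 against 5525 UMIs), and the part of depth, doublets or other cell types in their profile was not tested.

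**Figure D4:**
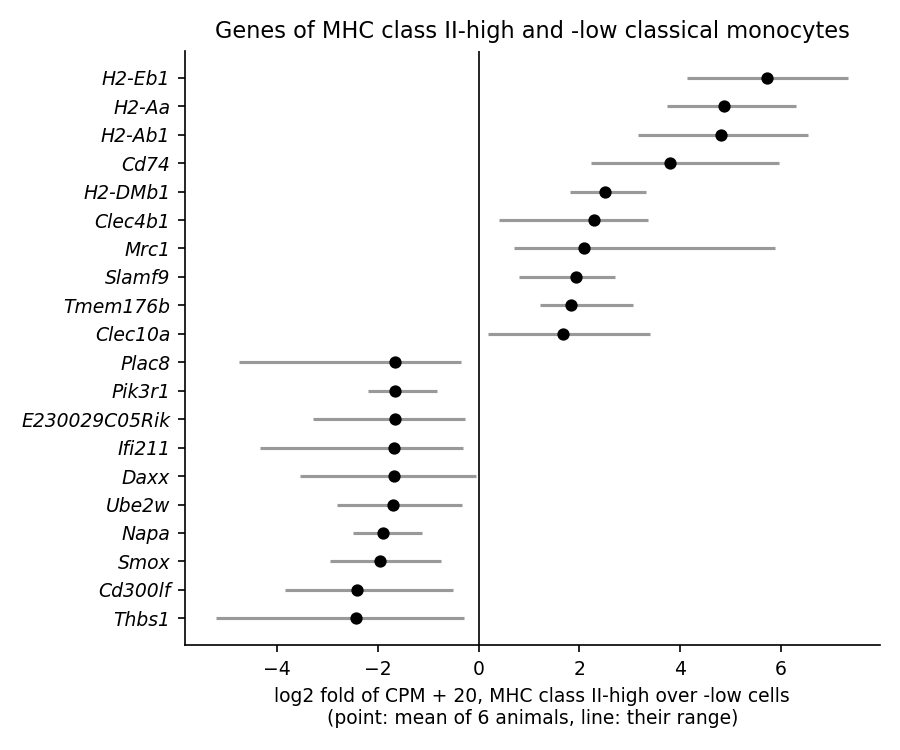
Log2 fold of CPM + 20 (x axis) between MHC class II-high and MHC class II-low classical monocytes for the 10 genes with the largest fold in each direction (y axis), points for the mean and lines for the range of 6 animals. H2-Eb1 is highest at 5.72 and Thbs1 lowest at -2.43, and every line lies on 1 side of 0.

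Between the genotypes, 1 gene rose and 1 fell in classical monocytes. UMIs were summed per animal over its classical monocytes, in the 4 wild-type (1, 3, 4, 5) and 4 knock-out animals (1, 2, 4, 5) with 10 or more of them, which gave 101784 to 316404 UMIs per animal from 279 cells. Wild-type animal 2 and knock-out animal 3 were left out, with 5 and 6 cells. Of 2517 genes tested by edgeR's quasi-likelihood test, the 2 called genes are 0.0795%, and 177 had an unadjusted p under 0.05. Levels from here on are CPM after TMM scaling, and folds are log2 of the knock-out level over the wild-type level ± SE. The 9 rule genes that entered the fit are described but not counted.

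Bst2 rose in the knock-out animals. It encodes tetherin, an interferon-induced membrane protein that holds budding viruses at the cell surface, and lies at chr8:71534255-71537472 (GRCm38.p6). Its level was 297, 257, 275 and 301 CPM in wild-type animals 1, 3, 4 and 5 and 465, 436, 689.7 and 734 CPM in knock-out animals 1, 2, 4 and 5. Every knock-out animal lay above every wild-type animal, and the wild-type values were close together (282 ± 20.4 against 581 ± 152 CPM, mean ± SD). The fold was 1.02 ± 0.19 (edgeR adjusted p = 0.0482), from 33 to 73 UMIs per wild-type and 60 to 128 per knock-out animal. A UMI of Bst2 was found in 67.6% of classical monocytes and 35.4% of lymphocytes.

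Emp1 fell. It encodes an epithelial membrane protein of the tetraspan family and lies at chr6:135362550-135383173. Its level was 297, 508, 409 and 286 CPM in wild-type and 124, 145, 200.2 and 156 CPM in knock-out animals, so that the highest knock-out animal lay below the lowest wild-type animal. The means were 375 ± 105 and 156 ± 32.2 CPM, with a fold of -1.29 ± 0.24 (adjusted p = 0.0482).

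Both calls lay just inside the threshold. Of 23 alternative fits, 7 called Bst2 and 6 called Emp1, with the same direction in all 23, folds from 0.77 to 1.12 and from -2.46 to -0.87, and adjusted p from 0.00223 to 0.859 and from 0.000120 to 0.665. The fits share the same animals and are not independent. The fit with at least 20 cells per animal is the same as that without knock-out animal 4, which held 19. DESeq2 called both and Mt1, while RLE size factors gave both an adjusted p of 0.0556 and the fit without robust dispersion 0.142. The count fell to 0 when any of wild-type animals 3, 4 and 5 and knock-out animals 4 and 5 was left out, and was 5, 7 and 6 without knock-out animal 1, knock-out animal 2 and wild-type animal 1.

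**Figure D5:**
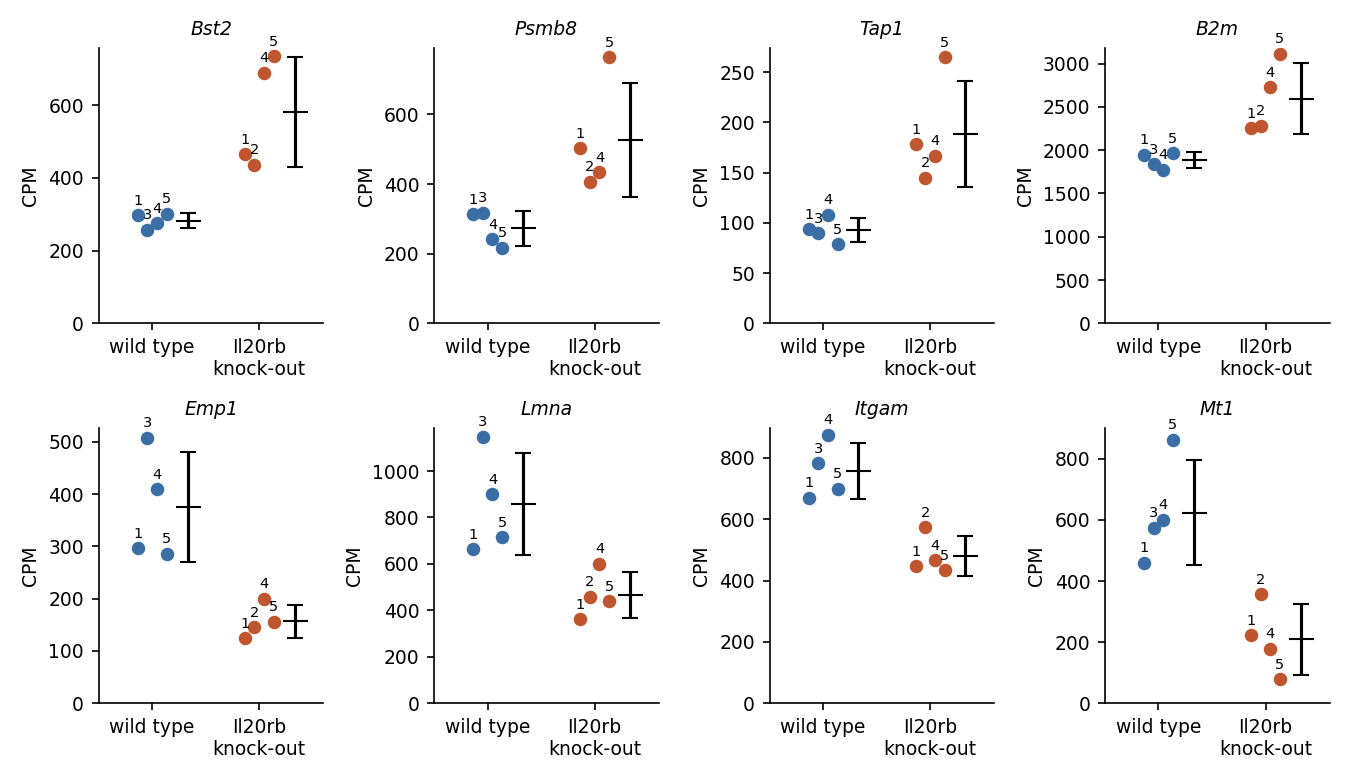
TMM-scaled CPM (y axes, from 0) of 8 genes in classical monocytes of the 4 wild-type and 4 Il20rb knock-out animals, 1 point per animal with its number, and mean ± SD. Bst2, Psmb8, Tap1 and B2m lie higher and Emp1, Lmna, Itgam and Mt1 lower in all 4 knock-out animals, and Bst2 and Emp1 passed the test.

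The genes that came closest to the threshold also separated the 4 and 4 animals. They were picked by their low p, which favours such genes. Of all genes tested, 2.34% had every knock-out animal higher and 1.87% every knock-out animal lower. On the higher side Lgals3bp, a secreted glycoprotein induced by interferon, had a fold of 1.53 ± 0.33 (adjusted p = 0.113), Psmb8 0.96 ± 0.21 (adjusted p = 0.113), Tap1 1.05 ± 0.25 (adjusted p = 0.169) and the kinase Vrk1 1.17 ± 0.30 (adjusted p = 0.242). On the lower side the nuclear lamina gene Lmna had -0.90 ± 0.19 (adjusted p = 0.113), the lysosomal peptidase Tpp1 -1.56 ± 0.35 (adjusted p = 0.127), Itgam -0.65 ± 0.16 and the transcription factor Elk3 -1.34 ± 0.33 (both adjusted p = 0.169). None of these passed, and Elk3 overlaps other genes in the annotation.

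Of the described lists, the MHC class I pathway held the most genes in which the genotypes did not overlap. MHC class I shows peptides from inside the cell: the immunoproteasome subunits cut them, the TAP transporter and tapasin load them, and the heavy chain with B2m carries them to the surface. All 11 of the 18 listed genes that were tested had a positive fold (50.8% of all genes tested did), with a median of 0.62 against 0.01 over all genes. In 7 of the 11 every knock-out animal lay above every wild-type animal, against 2.34% of all genes tested. None of the 11 passed the test over all genes, and 10 had an unadjusted p under 0.05, against 177 of all 2517 genes tested.

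Along the pathway, the peptide-cutting Psmb8 stood at 313, 317, 242 and 217 CPM in wild-type and 502, 407, 434 and 764 CPM in knock-out animals. The transporter chain Tap1 stood at 93.6, 89.7, 108 and 78.9 against 178, 145, 167 and 265 CPM, a clear gap between the genotypes. B2m, the light chain, was the most abundant, at 1949, 1841, 1776 and 1967 against 2253, 2283, 2725 and 3117 CPM (0.46 ± 0.13, adjusted p = 0.269). The proteasome activator genes Psme1 (0.59) and Psme2 (0.56), tapasin (Tapbp, 0.62) and the nonclassical heavy chain H2-T23 (0.73) separated the animals as well. The classical heavy chains did not: H2-D1 stood at 1404, 1387, 1526 and 1484 against 1708, 1912, 1335 and 2064 CPM (0.28 ± 0.14, adjusted p = 0.714), with knock-out animal 4 lowest of all 8, and H2-K1 had a fold of 0.62 (adjusted p = 0.309). Heavy chain genes are near-identical to others of their family and can share reads, so their single values are uncertain.

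Summed over the 11 genes, the wild-type animals lay between 5654 and 5932 CPM and the knock-out animals between 7334 and 10487 CPM. Monocytes with the interferon program, which are outside the set, made up 40.4%, 4.23%, 22.7% and 13.7% of gated monocytes in wild-type animals 1, 3, 4 and 5, against 60.6%, 5.00%, 56.9% and 70.8% in knock-out animals 1, 2, 4 and 5. Knock-out animals 1, 4 and 5 thus lay above every wild-type animal in this share as well, and knock-out animal 5 was highest in both measures, while knock-out animal 2 had a low share and an MHC class I sum of 7852 CPM. The part of this difference in the higher Bst2 and MHC class I levels was not tested. Positive folds were also the rule in the other cells of these animals. Over all gated monocytes 16 of 16 tested MHC class I genes were positive (median 0.72) and in the cells outside the gate 16 of 18 (median 0.44). The type I interferon genes were positive in 32 of 32 (median 0.91) and 33 of 33 (median 0.70). Over all gated monocytes, Bst2 overlapped between genotypes, with 729 CPM in wild-type animal 1 and 395 CPM in knock-out animal 2 (fold 1.04, adjusted p = 0.790). Whether the effect differs between classical and all gated monocytes was not tested. In MHC class II-low classical monocytes alone, a choice made after seeing the data, all 11 genes again had positive folds (median 0.68) and Bst2 had a fold of 0.77 (adjusted p = 0.113).

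Interferons act on such genes through the interferon-stimulated response element (ISRE), whose core is a pair of GAAA letters with 2 bases between. The motif GAAANNGAAA, on both strands of the 250 bases before the gene start, was found in 3 of 12 genes, Bst2 and the 11 tested MHC class I genes, and in 2.98% of all 32851 promoters. The 3 promoters are printed as 120 bases around the match, from RefSeq (GRCm38.p6), with the matches in capitals, which overlap in Bst2. Bst2 (chr8:71537533-71537652, minus strand) is shown from 180 to 61 bases before the start, B2m (chr2:122147498-122147617, plus strand) from 189 to 70 and H2-T23 (chr17:36032756-36032875, minus strand) from 174 to 55.
Bst2: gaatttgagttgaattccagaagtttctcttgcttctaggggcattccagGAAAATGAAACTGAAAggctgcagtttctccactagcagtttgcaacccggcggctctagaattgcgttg
B2m: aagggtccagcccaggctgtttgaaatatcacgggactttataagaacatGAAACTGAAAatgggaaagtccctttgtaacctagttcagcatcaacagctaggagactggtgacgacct
H2-T23: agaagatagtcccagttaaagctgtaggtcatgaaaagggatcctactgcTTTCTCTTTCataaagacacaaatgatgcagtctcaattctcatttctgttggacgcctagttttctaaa

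Antiviral genes of the type I interferon response had positive folds in all tested members. Of 36 listed genes 21 were tested, and all 21 were positive (median 0.69), with 1 called, Bst2, and 2 in which the genotypes did not overlap, Bst2 and, by less than the printed precision, Stat2. Over all genes tested, 50.8% were positive (median 0.01), 0.0795% were called and 2.34% had every knock-out animal higher. The same shares are the background of the lists below. Stat2, a subunit of the transcription factor that binds the ISRE, stood at 102, 53.8, 16.7 and 39.4 CPM in wild-type and 113, 102, 167 and 217 CPM in knock-out animals (1.33 ± 0.38, adjusted p = 0.309). Ifi27l2a, the most abundant, stood at 2653 ± 512 and 3784 ± 749.8 CPM (0.51, adjusted p = 0.368), and Slfn5 at 482 ± 170.1 and 689.9 ± 244 (0.50, adjusted p = 0.849). The cells were selected on low Cxcl10, Ifit2 and Rsad2, so strong responders of either genotype are outside the set, and these folds can be smaller than in unselected cells. What remained of the 3 genes was low: Rsad2, for example, stood at 34.9 ± 36.4 raw CPM in wild-type animals, against 84.3 ± 66.1 in knock-outs.

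The GTPases that interferon gamma induces and the DNA-sensing Ifi200 family overlapped between genotypes. All 5 tested genes of the first list were positive (median 1.00): Ifi47 stood at 95 ± 46.1 and 191 ± 77.6 CPM, Irgm1 at 64.0 ± 66.5 and 142 ± 67.0, Igtp at 31.9 ± 20.8 and 75.6 ± 24.4, and the transcription factor Irf1, listed with them, at 50.7 ± 14.0 and 141 ± 90.5 CPM (1.43 ± 0.43, adjusted p = 0.368). All 9 tested genes of the Ifi200 family were positive as well (median 0.83), from Ifi207 at 486 ± 155 and 522 ± 145 CPM and Ifi204 (0.42) to Ifi213 (1.17, adjusted p = 0.368) and Ifi205 (1.21, adjusted p = 0.425). In each of these 14 genes the genotypes overlapped. Members of the Ifi200 family resemble each other and can share reads.

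MHC class II genes varied more between animals than between genotypes. All 7 tested genes were positive (median 0.88), none separated the animals, and none passed. Cd74 stood at 1294, 4662, 5595 and 2115 CPM in wild-type and 4474, 10906, 4505 and 5650 CPM in knock-out animals (0.91 ± 0.56, adjusted p = 0.849). H2-Aa ranged from 167 to 1418 against 1134 to 2901 CPM (1.12 ± 0.76, adjusted p = 0.858), and H2-DMb1 had the lowest p, at 209 ± 112 against 357 ± 117 CPM (0.84 ± 0.39, adjusted p = 0.700). Wild-type animals 1 and 5, low in these genes, are those with the fewest MHC class II-high cells.

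The genes that define classical monocytes did not move as a group. Of 17 tested, 7 were positive and 10 negative (median -0.09), with none called. Plac8 stood at 3068, 1715, 1584 and 1972 CPM in wild-type and 4136, 2916, 2470 and 5018 CPM in knock-out animals (0.80 ± 0.28, adjusted p = 0.516), with wild-type animal 1 inside the knock-out range. The calcium-binding S100a6 (8905 ± 1200 and 8795 ± 863 CPM) and S100a4 (5911 ± 827 and 5549 ± 204) were the most abundant, with folds of -0.02 and -0.09. Itgam, the alpha chain of the integrin Mac-1, stood at 671, 783, 876 and 700.1 against 447, 574, 467 and 433 CPM, and it was the gene of the list whose knock-out animals all lay lower, against 1.87% of all genes tested. Of the rule genes, Ly6c2 stood at 548, 345, 349.6 and 389.6 raw CPM in wild-type animals, against 815, 373, 462 and 1230 in knock-outs, and Chil3 at 1198 ± 427 and 769.9 ± 313, given with no test.

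Receptors and adhesion molecules that steer monocytes into tissue went both ways, 8 positive and 9 negative of 17 (median -0.06). Ccr2 stood at 1106 ± 224 and 1369 ± 121 CPM (0.31 ± 0.15, adjusted p = 0.700), Fn1 at 2550 ± 904 and 2076 ± 684, and the complement receptor C5ar1 at 188 ± 46.5 and 102 ± 48.5 (-0.96 ± 0.29, adjusted p = 0.368). Among 9 tested chemokines 4 were positive (median -0.04). Ccl2 (2258 ± 866 and 1738 ± 938 CPM) and Ccl6 (1938 ± 429 and 1887 ± 596) were the most abundant, and Cxcl2, which attracts neutrophils, stood at 1629 ± 397 and 890.5 ± 382 (-0.90 ± 0.29, adjusted p = 0.464). Ccl12 rested on few animals, with 990.0 CPM in knock-out animal 4 and 98.6 in wild-type animal 5 against 25 or less in the other wild-type animals (2.71 ± 1.26, adjusted p = 0.729).

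Genes around the IL-10 and IL-20 receptor family did not separate the genotypes. Of 15 listed genes 5 were tested, 3 positive and 2 negative (median 0.11). The feedback inhibitor Socs3 stood at 207 ± 51.6 and 257 ± 111 CPM, the kinase Jak1 at 147 ± 23.2 and 176 ± 23.6, and Il10rb at 132 ± 36 and 104 ± 28.4 (-0.40 ± 0.27, adjusted p = 0.849). Of 8 tested genes of the oxidative stress factor NRF2 and the metallothioneins, 6 were negative (median -0.19). Mt1, a zinc-binding metallothionein, stood at 459.7, 574, 600.4 and 863 against 222, 356, 178 and 78.2 CPM (-1.58 ± 0.37, adjusted p = 0.242), a gap that did not pass here. It passed in 6 of 23 alternative fits, among them DESeq2 (-1.59, adjusted p = 0.00406) and MHC class II-low cells alone (-2.16, adjusted p = 0.000140). Over all gated monocytes the fold was -0.34 (adjusted p = 0.844), and in the cells outside the gate -0.10 (adjusted p = 0.936). The ferritin chains Fth1 (-0.20) and Ftl1 (-0.21) and the heme-degrading Hmox1 (423 ± 328 and 125 ± 79.4 CPM, adjusted p = 0.721) overlapped between genotypes.

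Rpl29, a ribosomal protein gene lower in the knock-out animals in other cells of this series, stood at 1273, 1249, 1226 and 1183 against 861, 989, 523 and 830.3 CPM in classical monocytes (-0.61 ± 0.17, adjusted p = 0.242). In the cells outside the gate of the same 8 animals its fold was -0.89 (adjusted p = 0.0387), and BC028528 had 0.84 in classical monocytes and 0.64 in those cells. Rpl29 has near-identical copies, so its reads may come from more than 1 gene. For Emp1 the fold was 0.03 in the cells outside the gate, and for Bst2 it was 1.16 (adjusted p = 0.822), with 943 CPM in wild-type animal 1 and 331 CPM in knock-out animal 2.

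The genotype effect in classical monocytes was compared with that in activated ones by an interaction of cell set and genotype within animals. Against interferon-program monocytes (3 animals per genotype with 10 or more cells of both), 0% of 3584 genes passed in edgeR, and 135 had an unadjusted p under 0.05. Against Arg1 and Ccl24 monocytes (2 wild-type and 3 knock-out animals), 0% of 3680 passed and 107 had an unadjusted p under 0.05. The 2 comparisons are not independent. Both use the classical monocytes, and 154 activated cells carried both programs, 60.4% of all Arg1 and Ccl24 monocytes. Rgs1, a brake on chemokine receptors, had the lowest p in both comparisons (log2 difference -1.97 ± 0.49 and -2.49 ± 0.61, adjusted p = 0.695 and 0.645). In the first comparison the chaperone Hspa1b (1.12), the endocytic adaptor Dab2 (-1.91 ± 0.45, adjusted p = 0.695), the prostaglandin synthase Ptgs2 (1.58) and Arl5c (2.45) came next. In the second, Dab2 (-1.70 ± 0.43, adjusted p = 0.645), Ifitm1 (3.0), Basp1 (-2.27) and Pdcd4 (4.43) did. For Bst2 the differences were 0.27 ± 0.26 and 0.05 ± 0.32, and for Emp1 -0.41 ± 0.31 and -1.04 ± 0.38.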

How the data were processed

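The deposited table holds UMI counts of each gene in each cell, not normalized. Its headers name every cell by well, genotype and hashtag. Cell Ranger 6.0.1, R 4.0.5 and mm10 are named in the submitters' processing notes, without their roles. How hashtags were called, which annotation release was used and whether strand was used: not given in the sources used here. Each deposited cell held at least 1000 UMIs and 501 genes, so cells had been filtered before deposit. Symbols came from a reference table (GRCm38.p6), which matched 32158 of 32285 identifiers, and 52 that shared a symbol kept their identifier.

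The members, gene lists and tests were chosen with earlier results of these data known. No cell was removed as a doublet: 3 members with 2 or more UMIs of other lineages were left out in 1 alternative only. Counts were summed per animal over its member cells (10 or more) and tested by edgeR 4.0.16 in R 4.3.3 (filterByExpr, TMM, robust quasi-likelihood), with Benjamini-Hochberg adjustment over all genes tested, called at an adjusted p under 0.05. The interaction fits held the animal as a term. DESeq2 1.42.0 and limma 3.58.1 served as alternatives, and the code was tested on simulated counts. Animals' shares were set against each other with an exact permutation test, two-sided. Precision is limited by 101784 to 316404 summed UMIs per animal, where 3 UMIs are 9.48 to 29.5 CPM.

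Genes named are the 5 markers, the rule genes, the 5 lowest p in each direction of the genotype test, the 2 most abundant and the 2 of lowest p of each of 11 described lists, the 10 largest folds in each direction of the 2 described contrasts among genes of 50 CPM or more that moved alike in every animal, and the 5 lowest p of each interaction. Other genes were named after their values were seen.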

Additional observations from a re-analysis of the deposited data

Results flagged for a closer look

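In each group of 4 or 5 animals, the gap between the highest or lowest animal and the next was compared with the range, over 98 groups, and 7 stood out, where chance gives about 1 in 20. Classical monocytes made up 70.0% of gated monocytes in knock-out animal 2, far above the other knock-out animals. Among named genes, 1 animal stood apart in Lgals3bp (88.7 CPM in wild-type animal 5, still below every knock-out animal), S100a4 (7142 CPM in wild-type animal 3), Ccl12 (98.6 CPM in wild-type animal 5), Socs3 (284 CPM in wild-type animal 4), Slfn5 (327 CPM in knock-out animal 2, lowest of its genotype) and Hmox1 (243 CPM in knock-out animal 1).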

How the results depend on the processing

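The calls between genotypes were sensitive to the fit. Against 2 genes in the chosen fit, 0 were called with RLE size factors, with library sizes alone, without robust dispersion, with at least 20 cells per animal (the same fit as without knock-out animal 4), with stricter program limits, and in well 1 or well 2 alone. The count was 36 (19 higher, 17 lower) with no low-count filter, 10 with a stricter gate, 1 in MHC class II-low cells alone and 4 with the well as a replicate block, a limma fit with 2 paired sums per animal, in which Bst2 had an adjusted p of 0.0536. Leaving out 1 animal gave 0 to 7. The count was 3 in DESeq2 and without doublet-marker cells, with both genes kept, 3 in thinned cells, with 1 of them kept (Bst2), and 2 over all gated monocytes, with 0 of them kept. For the interactions, 7 and 8 genes were called with at least 20 cells of both sets, which left 1 wild-type animal assumed to vary like the others, 1 with no filter against interferon monocytes, and 0 to 3 and 0 to 1 without 1 animal.

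The difference in the share of all cells (0.494 percentage points) turned to -0.0720 in well 1, -0.782 in thinned cells and -0.394 under the stricter gate, and ran from -0.430 to 1.23 without 1 animal. That of gated monocytes (2.33) turned to -1.40 and -0.997 under the same thinning and gate and ran from -6.87 to 5.87. Median UMIs differed by 276 in well 1 and by -289 to 216 without 1 animal, against -104. The cause of these changes was not tested.

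Of 45 named genes, 10 changed direction in some fit. Over all gated monocytes the folds were -0.00 for Vrk1, 0.13 for Fn1, 0.06 for Ccl2, 0.14 for Ccl6, -0.19 for Socs3 and -0.11 for Jak1. S100a6 had 0.00 with at least 20 cells and 0.12 in well 1, and Ifi207 -0.03 in thinned cells and -0.12 in well 2. Without 1 animal the folds ran from -0.09 to 0.04 for S100a6, -0.15 to 0.00 for S100a4, -0.17 to 0.17 for Ccl6, -0.10 to 0.27 for Ifi207 and -0.36 to 0.12 for Fth1.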
